A study of Mus musculus with 8 samples.

Results

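The genes described here are 10 components of mTORC1 and of the amino acid sensing machinery that feeds it, chosen by name among the 20207 gene rows of each library. They are the kinase Mtor, its partner Rptor, the Rag GTPases Rraga, Rragc and Rragd, the Sestrins Sesn1, Sesn2 and Sesn3, and the tuberous sclerosis genes Tsc1 and Tsc2. Of the 10 genes, 9 were among the 12561 genes with a total above 1 RPKM (reads scaled by exon length in kilobases and by library size) that entered the tests, and Rragd was not. RNA sequencing covered 8 libraries of sorted mouse bone marrow cells, with 2 libraries of normal long-term haematopoietic stem cells (LT-HSC), 2 of LT-CML stem cells, and 1 each of short-term normal stem cells (ST-HSC), ST-CML stem cells, normal KLS- progenitors and CML-KLS- progenitors. CML, chronic myeloid leukaemia, was modelled in Tal1-tTA+ TRE-BCR-ABL1+ mice, in which withdrawal of doxycycline lets the Tal1-driven transactivator tTA switch on BCR-ABL1 in blood-forming cells. The methods describe the normal mice as Tal1-tTA+ littermates, which would share the transactivator with the CML mice, but the labels give no genotype. The labels give the strain as C57BL/6 whereas the methods describe the sorted CML mice and littermates as FVB/N. The labels give ages only for normal mice, with 6 months for LT-HSC replicate 2 and 2 months for the other normal libraries. The older age is above the range that the methods give for the sorted littermates. The methods also name C57BL/6 mice of a younger and an older age, but for metabolite measurements. Whether the normal libraries carried the transactivator, or shared the strain of the CML mice, is therefore not established. LT cells were sorted as CD150+CD48-CD135- and ST cells as CD150-CD48-CD135- within the cKit+Lineage-Sca-1+ gate, and KLS- cells were cKit+Lineage-Sca-1-. The LT-HSC replicates came from mice of different ages, so that age and replicate cannot be told apart there, and nothing in the labels says whether the LT-CML replicates came from separate mice. P-values measure only the spread between these libraries.

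mTORC1 is a protein kinase complex that promotes translation and cell growth and restrains autophagy when nutrients are plentiful. Amino acids bring it to the lysosome through heterodimers of RagA or RagB with RagC or RagD, and Sestrins oppose this step by holding back GATOR2, with Sestrin2 acting as a leucine sensor. Growth factors and energy status act through the TSC complex of Tsc1 and Tsc2, which switches off the GTPase Rheb, the direct activator of mTORC1. The study examined nutrient signalling by mTORC1 in LT-CML stem cells at the level of phosphorylated proteins, and the transcript levels given here concern the machinery itself, not its activity.

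Transcripts of the machinery were present in every population. No gene of the 9 passed the threshold between CML stem cells and normal HSCs, whereas Sesn1, Sesn3 and Tsc1 were lower in KLS- progenitors than in stem cells. Between CML stem cells and normal HSCs (3 against 3 libraries, limma with Benjamini-Hochberg adjustment), 0 of 9 genes were called in either direction, where 1.18% of all genes tested were higher and 1.16% lower. Only Rraga had an unadjusted p under 0.05 there. Between LT-CML and LT-HSC libraries (2 against 2) the count was again 0 of 9, against a background of 0.939% higher and 0.788% lower, with 1 unadjusted p under 0.05, for Sesn3. Between LT and ST stem cells it was 0 of 9, against 2.74% of genes higher in LT cells and 2.13% lower, with 1 unadjusted p under 0.05, for Sesn1. In KLS- progenitors compared with stem cells, 3 of 9 genes were called lower and 0 of 9 higher. That comparison called 26.5% of all genes lower and 22.2% higher, so the share of the machinery called lower was near that of genes at large.

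**Figure D1:**
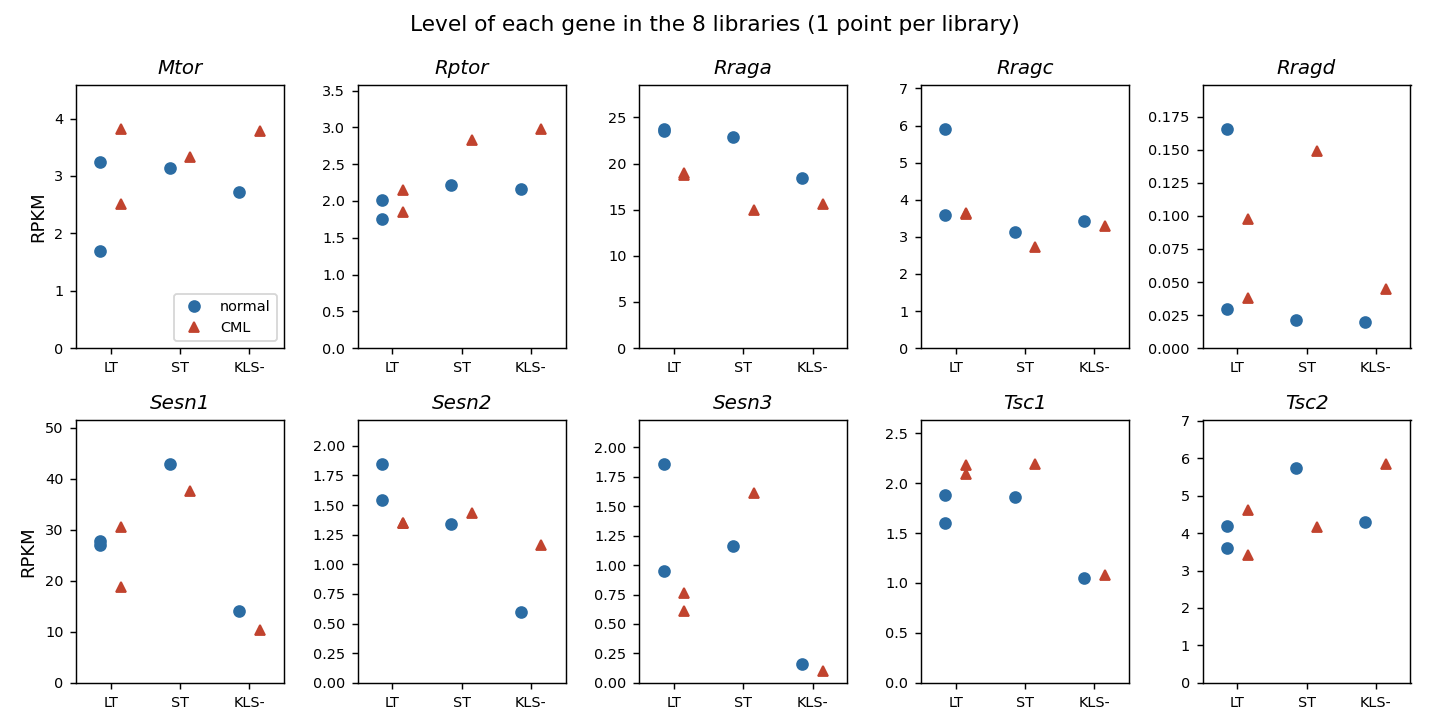
RPKM (y axis, from 0, a separate scale for each gene) of the 10 genes in long-term (LT), short-term (ST) and KLS- populations, with 1 circle for each normal library and 1 triangle for each CML library. Sesn1, Sesn2, Sesn3 and Tsc1 have both KLS- points below every LT and ST point, and Rraga has every CML stem point below every normal stem point.

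Libraries were comparable in depth, at an estimated 17.8 to 23.9 M reads. The RPKM summed over all genes was higher in normal KLS- (444650) and CML-KLS- cells (465695) than in the stem libraries. There it ran from 324114 in LT-CML replicate 2 to 372849 in ST-HSC, and the main tests did not rescale the libraries. Of the markers used for sorting, Slamf1, which encodes CD150, was higher in LT than in ST cells (log2 fold change 2.83), and Ly6a, which encodes Sca-1, was lower in KLS- cells than in stem cells (-3.34). Transcripts of the proteins that the LT and ST gates exclude were present all the same, with Cd48 at 41.8 and 45.2 RPKM and Flt3, which encodes CD135, at 61.6 and 71.6 RPKM in the ST libraries. Flt3 was also called higher in LT-CML stem cells relative to LT-HSCs (1.95, adjusted p = 0.0184), and Cd48 differed by 1.47 there (adjusted p = 0.109). LT-HSC replicate 2 stood apart by its neutrophil granule transcripts, with a summed level of 3184 RPKM over 7 granule markers against 471 RPKM in LT-HSC replicate 1. LT-CML replicate 2 held 2511 RPKM against 280 RPKM in LT-CML replicate 1, but the 2 sums differed in make-up. The largest parts were S100a8 (1802 RPKM) and Ngp (688 RPKM) in LT-HSC replicate 2, with Mpo at 69.9 RPKM. In LT-CML replicate 2 they were Mpo (1291 RPKM) and S100a8 (588.5 RPKM). Since these are bulk samples, fewer cells of a type and less RNA per cell cannot be told apart.

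Mtor, the catalytic subunit (mm9 chromosome 4, 147822720 to 147931792), was measured at 3.24, 1.69 and 3.14 RPKM in LT-HSC replicates 1 and 2 and ST-HSC. It was at 3.82, 2.50 and 3.33 RPKM in LT-CML replicates 1 and 2 and ST-CML, and at 2.72 and 3.79 RPKM in normal KLS- and CML-KLS- cells. The lowest value was that of LT-HSC replicate 2, the library with the highest granule transcripts among stem cells, and the normal and CML ranges overlapped. The log2 fold change in CML stem cells, computed on RPKM + 1 as for every fold change here, was 0.21 (95% interval -0.31 to 0.73, adjusted p = 0.773), and without LT-HSC replicate 2 it was -0.0023. Rptor, which encodes Raptor, the scaffold that recruits mTORC1 substrates (chromosome 11, 119464219 to 119760890), was steadier, at 2.01, 1.75 and 2.22 RPKM in the normal stem libraries and 2.15, 1.85 and 2.83 RPKM in the CML stem libraries. Normal KLS- cells held 2.17 RPKM and CML-KLS- cells 2.98 RPKM, the highest of the 8 libraries. Its values spanned 1.70-fold in all, and its log2 fold change in CML stem cells was 0.12 (interval -0.25 to 0.49, adjusted p = 0.819). The KLS- to stem difference was 0.09 for Mtor (interval -0.37 to 0.55) and 0.14 for Rptor (-0.15 to 0.44), neither past the threshold. The Rptor value depended on the scaling, since quantile normalization gave 0.39 with an adjusted p of 0.0395. With libraries scaled by their upper quartile Mtor and Rptor were at -0.08 and -0.02.

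Among the Rag GTPases, Rraga, the GTPase that pairs with RagC or RagD (chromosome 4, 86221577 to 86223185), held 72.1 to 80.3% of the summed RPKM of Rraga, Rragb, Rragc and Rragd in every library. Rraga was at 23.5, 23.8 and 22.9 RPKM in LT-HSC replicates 1 and 2 and ST-HSC, and at 18.7, 19.0 and 14.9 RPKM in LT-CML replicates 1 and 2 and ST-CML. Every CML stem library was thus below every normal stem library, as was the case for 11.4% of all genes tested. The mean was 23.4 ± 0.47 RPKM (SD, n = 3) in normal HSCs and 17.6 ± 2.29 RPKM (SD, n = 3) in CML stem cells. The log2 fold change was -0.40 (standard error 0.14, 95% interval -0.73 to -0.07), with an unadjusted p of 0.0229 and an adjusted p of 0.279 from limma, so it was not called among 12561 genes. An exact two-sided permutation test over the 6 libraries gave p = 0.1, the smallest value that 3 against 3 allows. The estimate kept its sign in each of the other settings tried and with each library left out, from -0.46 to -0.29, with adjusted p between 0.161 and 0.582. In LT cells alone the difference was -0.31 (interval -0.72 to 0.10). Normal KLS- cells held 18.5 RPKM and CML-KLS- cells 15.6 RPKM, and the KLS- to stem difference was -0.21 (interval -0.49 to 0.07, adjusted p = 0.187). Rraga and Rragb encode close paralogues, and how reads matching both were assigned is not given in the sources used here.

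Rragc, which encodes a partner GTPase of RagA (chromosome 4, 123594689 to 123614240), was at 3.60, 5.91 and 3.12 RPKM in the normal stem libraries and 3.63, 3.60 and 2.74 RPKM in the CML stem libraries, with 3.43 and 3.29 RPKM in normal KLS- and CML-KLS- cells. All values lay within 2.74 and 3.63 RPKM except that of LT-HSC replicate 2. Its log2 fold change in CML stem cells was -0.24 (interval -0.76 to 0.28, adjusted p = 0.742), and without LT-HSC replicate 2 the difference was -0.02. The KLS- to stem difference was -0.04 (interval -0.43 to 0.35). Rragd, the other partner of RagA and a known target of the lysosomal transcription factors TFEB and TFE3 (chromosome 4, 33070012 to 33109155), was close to the limit of detection. It was at 0.030, 0.166 and 0.021 RPKM in the normal stem libraries, 0.038, 0.098 and 0.149 RPKM in the CML stem libraries, and 0.020 and 0.044 RPKM in normal KLS- and CML-KLS- cells. These values correspond to about 2 to 20 reads, so that counting alone gave an error of 22.1 to 69.9% of a value. LT-HSC replicates 1 and 2 themselves held about 3 and 20 reads. Rragd did not enter the tests, so no difference was tested. Rragd held at most 0.72% of the summed Rag RPKM, and Rragc 10.9 to 18.3%.

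**Figure D2:**
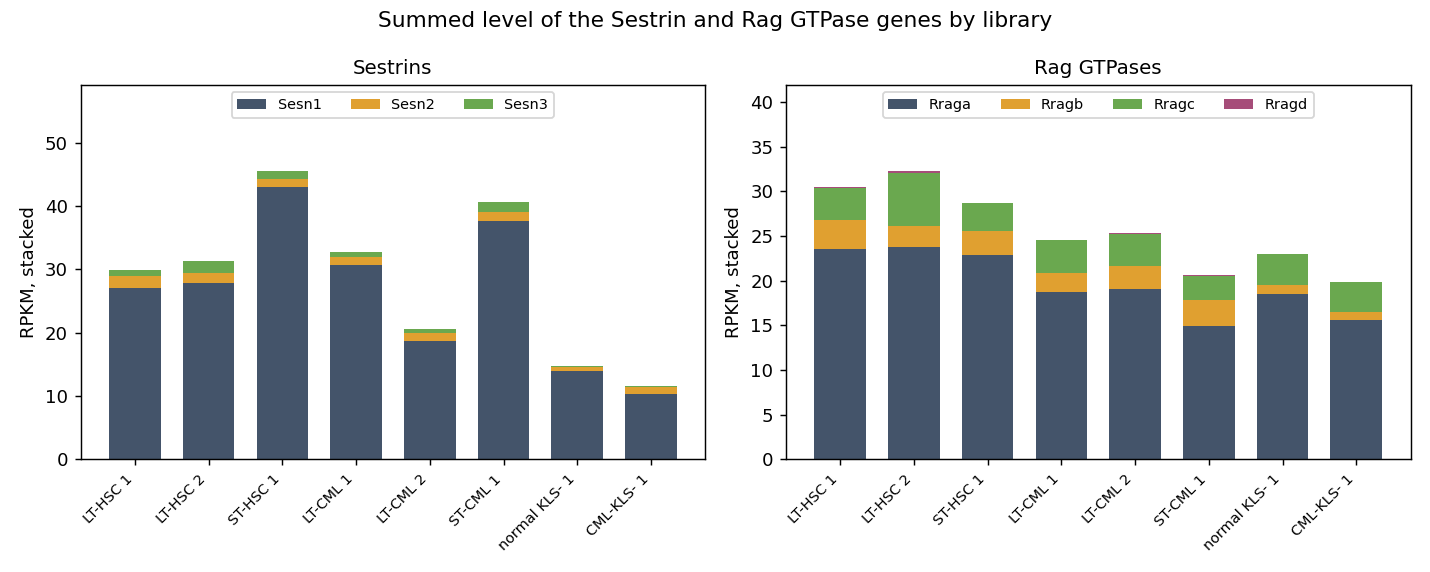
Stacked RPKM of the 3 Sestrin genes (left) and the 4 Rag GTPase genes (right) in each of the 8 libraries, from 0. Sesn1 makes up 89.1 to 94.9% of each Sestrin bar and the KLS- bars are the lowest, and Rraga makes up 72.1 to 80.3% of each Rag bar.

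Sesn1 and Sesn3 had the widest ranges of log2(RPKM + 1) among the genes described. Sesn1 is a p53 and FoxO target that encodes a stress-inducible inhibitor of mTORC1 (chromosome 10, 41530380 to 41628230). It was at 27.0, 27.9 and 43.0 RPKM in LT-HSC replicates 1 and 2 and ST-HSC, at 30.6, 18.7 and 37.6 RPKM in LT-CML replicates 1 and 2 and ST-CML, and at 14.0 and 10.3 RPKM in normal KLS- and CML-KLS- cells. Both KLS- libraries were below all 6 stem libraries, and the ST libraries were the highest of their disease state. Sesn1 was lower in KLS- progenitors by 1.34 on the log2 scale (adjusted p = 0.000496, limma, with a standard error of 0.18). That estimate gave LT and ST cells equal weight, with mean levels of 26.1 RPKM in LT and 40.3 RPKM in ST libraries. The plain means were 30.8 ± 8.54 RPKM (SD, n = 6) in stem libraries and 12.2 ± 2.62 RPKM (SD, n = 2) in KLS- libraries. The call held with each library left out, at adjusted p of 0.0138 or below, and in every other setting tried. Sesn1 was also the only one of the 9 genes with an unadjusted p under 0.05 between LT and ST cells, where the log2 fold change was -0.63 (interval -1.05 to -0.21, unadjusted p = 0.00819). The adjusted p of 0.1 did not pass, and it ranged from 0.0305 without LT-CML replicate 1 to 0.444 over the libraries left out. The other 8 genes differed between LT and ST cells by -0.26 to 0.38, with adjusted p from 0.292 to 0.871. Between CML and normal stem cells Sesn1 differed by -0.19 (interval -0.85 to 0.47, adjusted p = 0.848), and the estimate became 0.09 without LT-CML replicate 2 and 0.02 without ST-HSC.

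Sesn2, an ATF4 and p53 target that encodes the leucine-sensing Sestrin (chromosome 4, 132047947 to 132066416), was lower per length than Sesn1, whose RPKM was 8.89 to 32.0 times as high. Sesn2 was at 1.85, 1.54 and 1.34 RPKM in the normal stem libraries, 1.35, 1.34 and 1.43 RPKM in the CML stem libraries, and 0.595 and 1.16 RPKM in normal KLS- and CML-KLS- cells. Both KLS- libraries were again below every stem library, and the normal one was the lower of the pair. The log2 fold change to stem cells was -0.40 (interval -0.75 to -0.05, adjusted p = 0.0567), not past the threshold, with adjusted p of 0.0306 without CML-KLS- and 0.642 without normal KLS- cells. In CML stem cells the difference was -0.11 (interval -0.41 to 0.19, adjusted p = 0.788).

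Sesn3, a FoxO target (chromosome 9, 14080745 to 14130582), was the gene with the widest relative range, 17.9-fold between its extremes. It was at 0.952, 1.86 and 1.16 RPKM in LT-HSC replicates 1 and 2 and ST-HSC, at 0.761, 0.611 and 1.62 RPKM in LT-CML replicates 1 and 2 and ST-CML, and at 0.160 and 0.104 RPKM in normal KLS- and CML-KLS- cells. These are low counts, about 4 and 7 reads in the KLS- libraries and 24 to 96 reads in the stem libraries. Sesn3 fell in KLS- progenitors by 0.94 on the log2 scale (adjusted p = 0.00433, with a standard error of 0.20). This understates the ratio of the means, 0.114, because 1 RPKM was added to each value, and with 0.1 RPKM added the log2 fold change was -2.44. Without normal KLS- cells the adjusted p was 0.0559. Between LT-CML and LT-HSC libraries Sesn3 was lower in both CML libraries than in either normal one, with a log2 fold change of -0.49 (interval -0.97 to -0.01, unadjusted p = 0.0477, adjusted p = 0.422). The ST pair lay in the opposite order, and over all stem libraries the difference was -0.23 (interval -0.75 to 0.29). Rraga and Sesn2 were likewise lower in both LT-CML libraries than in either LT-HSC library, and Tsc1 was higher. The share of all genes separated in this way was not counted. Sesn3 was highest in LT-HSC replicate 2.

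The promoters of Sesn1 and Sesn3 are shown because these Sestrins were called lower together in KLS- progenitors. The windows come from RefSeq on the GRCm38.p6 build and the plus strand, and run from 250 bases before an annotated start to 30 bases after it. Sesn1 has 2 annotated starts. Capitals mark the letters of a searched motif.
Sesn1, upstream start, chr10:41810324-41810603: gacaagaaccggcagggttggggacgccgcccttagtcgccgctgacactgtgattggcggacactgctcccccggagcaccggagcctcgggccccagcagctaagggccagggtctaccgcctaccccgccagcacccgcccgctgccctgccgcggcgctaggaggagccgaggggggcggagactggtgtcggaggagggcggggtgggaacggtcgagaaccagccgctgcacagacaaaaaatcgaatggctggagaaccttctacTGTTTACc
Sesn1, downstream start, chr10:41887189-41887468: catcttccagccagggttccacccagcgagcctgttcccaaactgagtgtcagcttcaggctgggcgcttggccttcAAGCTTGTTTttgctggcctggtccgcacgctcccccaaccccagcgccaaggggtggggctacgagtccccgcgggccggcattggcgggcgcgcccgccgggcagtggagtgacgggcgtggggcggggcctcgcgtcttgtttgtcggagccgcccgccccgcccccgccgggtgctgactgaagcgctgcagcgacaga
Sesn3, chr9:14276051-14276330: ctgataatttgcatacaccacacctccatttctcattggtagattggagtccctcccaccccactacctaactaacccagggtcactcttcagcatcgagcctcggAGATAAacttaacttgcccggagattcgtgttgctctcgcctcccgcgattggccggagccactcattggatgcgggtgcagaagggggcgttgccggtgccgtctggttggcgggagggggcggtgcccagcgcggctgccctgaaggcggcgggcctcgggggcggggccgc
Both strands of all windows, each 250 bases before to 50 bases after a start, were searched for the FoxO core TGTTTAC, the ATF4 response element TGATGNAAN, the E-box CACGTG, the GATA motif AGATAA and the decamer element bound by p53. The upstream Sesn1 window held the FoxO core 22 bases after the start, a motif present in 3.65% of 32851 promoter windows. The downstream Sesn1 window held a p53 decamer 173 bases before the start. Such a decamer lay on either strand, in some position, in 8.36% of windows. The Sesn3 window held AGATAA 144 bases before the start, found in 11.2% of windows, and none of the other motifs. The Sesn2 window contained none of the 5 motifs, with the ATF4 element present in 3.95% of all windows. Among the other genes, the Rragc window held an E-box, found in 7.15% of windows, and the Rragd window the p53 decamer. A match describes letters in a window and not the binding of a factor.

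The tuberous sclerosis pair behaved unequally across populations. Tsc1, which encodes hamartin and stabilizes Tsc2 (chromosome 2, 28496748 to 28546687), was at 1.60, 1.88 and 1.87 RPKM in the normal stem libraries, at 2.18, 2.09 and 2.20 RPKM in the CML stem libraries, and at 1.05 and 1.08 RPKM in normal KLS- and CML-KLS- cells. The KLS- values were nearly equal and below all stem values, and every CML stem library was above every normal one, a separation found in 6.92% of all genes tested. Tsc1 fell in KLS- progenitors by 0.53 on the log2 scale (adjusted p = 0.00671, with a standard error of 0.12). The plain means were 1.97 ± 0.23 RPKM (SD, n = 6) in stem libraries and 1.07 ± 0.02 RPKM (SD, n = 2) in KLS- libraries. The call was lost without CML-KLS- cells (adjusted p = 0.107) and under quantile normalization (log2 fold change -0.22, adjusted p = 0.147). In CML stem cells the difference was 0.18 (interval -0.11 to 0.48, adjusted p = 0.638, exact permutation p = 0.1), not past the threshold. Its promoter window, shown as that of the third gene called lower in KLS- cells, has the GATA motif on the opposite strand 159 bases before the start, in capitals.
Tsc1, chr2:28640983-28641262: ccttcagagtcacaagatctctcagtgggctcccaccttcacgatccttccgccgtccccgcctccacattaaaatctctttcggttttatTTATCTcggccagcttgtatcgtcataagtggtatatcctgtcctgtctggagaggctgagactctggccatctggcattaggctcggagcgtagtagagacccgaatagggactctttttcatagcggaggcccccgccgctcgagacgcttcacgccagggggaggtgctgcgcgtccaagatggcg
Tsc2 encodes tuberin, the subunit that acts on Rheb (chromosome 17, 24732882 to 24769574). It was at 4.20, 3.59 and 5.74 RPKM in the normal stem libraries, at 4.62, 3.41 and 4.17 RPKM in the CML stem libraries, and at 4.31 and 5.86 RPKM in normal KLS- and CML-KLS- cells. The ranges of all groups overlapped. The log2 fold change was -0.11 in CML stem cells (interval -0.55 to 0.34) and 0.16 in KLS- cells (interval -0.24 to 0.56), and neither passed. The ratio of Tsc2 to Tsc1 RPKM was 1.63 to 3.08 in the 6 stem libraries, 4.09 in normal KLS- cells and 5.43 in CML-KLS- cells. Exons of Tsc2 share 578 bases (9.11% of its exon bases) with exons of Pkd1 on the opposite strand, and whether the reads kept strand is not given in the sources used here.

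**Figure D3:**
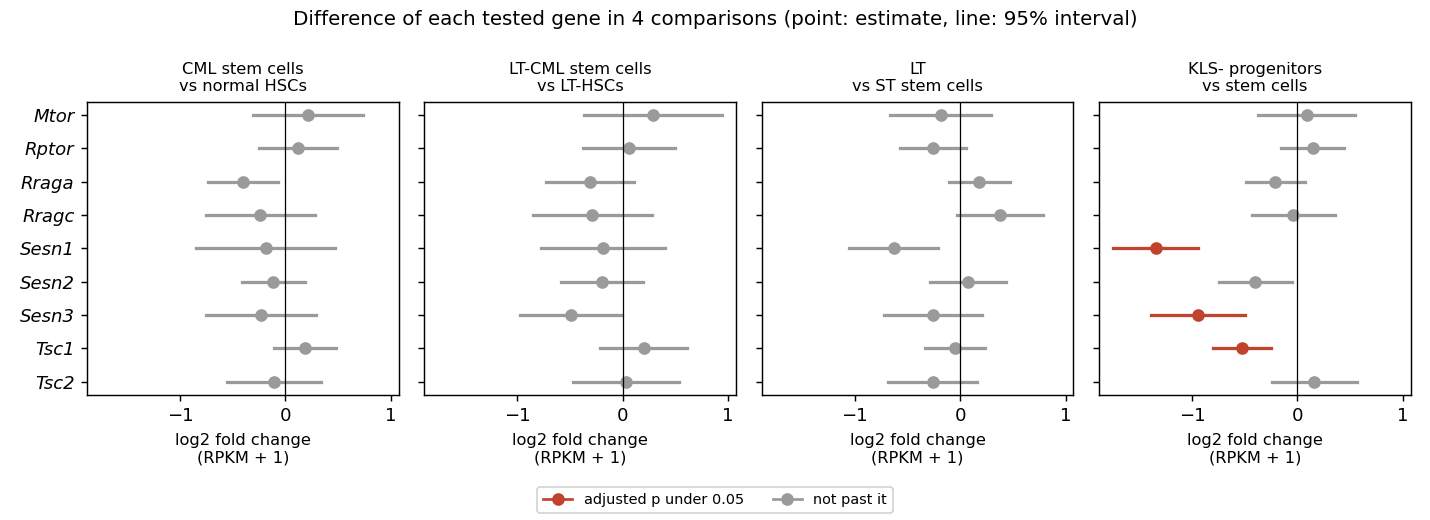
Log2 fold change on RPKM + 1 (x axis) of the 9 tested genes in 4 comparisons, with the 95% interval from limma as a line, in red where the adjusted p was under 0.05. Only Sesn1, Sesn3 and Tsc1 in KLS- progenitors are red, and in the other 3 comparisons every interval spans 0 except 1 in each, those of Rraga, Sesn3 and Sesn1.

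In the comparison of KLS- progenitors with stem cells, both KLS- libraries were below all 6 stem libraries for 4 of 9 genes (Sesn1, Sesn2, Sesn3 and Tsc1), as for 27.7% of all genes, and above them for 0 of 9, as for 21.9% of all genes. KLS- libraries also differed in transcripts of maturing cells. The 7 granule markers summed to 9478 and 15493 RPKM in normal KLS- and CML-KLS- cells and to between 243 and 3184 RPKM in stem libraries. Of these, Mpo alone was at 7891 and 13120 RPKM in KLS- cells, and Mpo, Ctsg and Prtn3 were called higher, whereas the late granule genes Ltf (-1.59), Ngp (-1.45), Camp (-1.02) and S100a8 (0.67) did not pass the threshold. The 7 erythroid markers summed to 864 and 1872 RPKM against 28.6 to 106 RPKM, mostly from Car1 at 804 and 1775 RPKM. Among them 5 of 6 tested were called higher, Hbb-b1 was at -0.34 and not called, and Hba-a1 was at 0 in all 8 libraries. The 4 basophil and mast cell markers summed to 101 and 82.0 RPKM against 2.60 to 29.3 RPKM, and the 9 stem cell markers to 382 and 297 RPKM against 390 to 838 RPKM. Of those 9, 6 were called lower, among them Hlf (-4.21), Procr (-4.15) and Mecom (-3.77), and Cd48, which the stem gates exclude, was called higher (2.60) and held up the sum at 174 and 129 RPKM. The sums of the 4 megakaryocyte markers, at 88.1 and 55.4 RPKM, lay within their range in stem cells (30.9 to 469 RPKM). Most of them came from Pf4, at 77.6 and 44.5 RPKM and not called. The other 3 were called lower, Gp9 (-2.01), Itga2b (-1.16) and Vwf (-1.13), where 26.5% of all genes were. The sums of the 5 lymphocyte markers, at 0.825 and 0.899 RPKM, also lay within their range (0.464 to 9.43 RPKM), with 0 of 3 tested called. The part of these cells in the lower Sestrin and Tsc1 values was not tested. Scaling by the upper quartile moved the median log2 fold change of all genes from -0.08 to -0.21. The share of calls that were higher went from 45.6% to 31.8%, so that calls over all genes moved towards lower. In that setting 5 of 9 genes were called lower, with Rraga and Sesn2 added. The part of that general shift in the added calls was not tested. Rraga was also called lower under quantile normalization, where the median of all genes was 0.009. Set against the median of -0.21 under upper-quartile scaling, Sesn1 at -1.56, Sesn3 at -0.998 and Tsc1 at -0.65 were below it.

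CML-KLS- and normal KLS- cells had 1 library each, so their difference has no replicate check. None of the 9 genes differed by more than 1.5-fold on RPKM + 1, a size reached upwards by 5.58% and downwards by 4.71% of all genes. The ratio of CML-KLS- to normal KLS- RPKM was highest among these genes for Sesn2, at 1.96, from about 42 and 72 reads, followed by Mtor at 1.39, Rptor at 1.38, Tsc2 at 1.36 and Tsc1 at 1.03. It was below 1 for Rragc (0.961), Rraga (0.844), Sesn1 (0.736) and Sesn3 (0.650). In a test of whether the CML effect differed between KLS- and stem cells, chosen after the values were seen, 9 of 12561 genes passed and none was among those described here. The estimate for Sesn2 was 0.55 (interval -0.03 to 1.14, unadjusted p = 0.0616, adjusted p = 1).

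The wider pathway was read from lists of related genes. In CML stem cells compared with normal HSCs none of the listed pathway genes was called. This covers 0 of 11 mTOR complex subunits, 0 of 9 Rag and Ragulator genes, 0 of 15 Sestrin, GATOR and KICSTOR genes, 0 of 3 folliculin genes, 0 of 14 TSC, Rheb and AMPK genes, 0 of 17 mTORC1 substrates, 0 of 12 p53 targets and 0 of 14 ATF4 targets. The medians of these lists lay between -0.15 (p53 targets) and 0.28 (ATF4 targets), and that of all genes at -0.04. The largest differences, none past the threshold, were in the stress lists. Cdkn1a, the p53-induced cell cycle inhibitor, was at -1.22 (interval -1.99 to -0.44, adjusted p = 0.147). Every CML stem library was below every normal one for Cdkn1a, as for 11.4% of all genes tested. Nupr1, a stress-induced chromatin protein, was at 1.27 (adjusted p = 0.697). Atf4 itself was at -0.70 and Btg2 at -0.48. Among sensing genes, Kptn of KICSTOR was at -0.51, Depdc5 of GATOR1 at 0.43 and Slc38a9, the lysosomal arginine sensor, at 0.38. The others named by size were Rhebl1 at 0.49, Prkaa2 at -0.44, Mitf at 0.36, Grb10 and Mapkap1 both at -0.27, Deptor (Depdc6 in the files) at 0.24, Fnip2 at 0.21 and Flcn at 0.19. Kptn and Prkaa2 were also lower in every CML stem library than in every normal one. Slc38a9, Rhebl1, Mitf and Deptor were higher in every CML stem library, as were 6.92% of all genes tested. Between LT-CML and LT-HSC libraries the same lists again held no call.

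In KLS- progenitors compared with stem cells, 19 of the 95 tested genes of the 8 lists were called higher and 27 lower (20% and 28.4%), near the 22.2% and 26.5% of all genes, so that calls in both directions are not particular to the pathway. The values are given by branch as a description. Of 9 Rag and Ragulator genes 3 rose, all Ragulator subunits that anchor the Rags to the lysosome, and 1 fell. Lamtor2 (Robld3 in the files) rose by 1.14 on the log2 scale, Lamtor4 (0910001L09Rik) by 0.82 and Lamtor1 (2400001E08Rik) by 0.45, while Rragb fell by 0.87. Of 15 Sestrin, GATOR and KICSTOR genes 2 rose and 4 fell. The arginine sensor Castor1 (Gatsl3) fell by 1.68 and its paralogue Castor2 (Gatsl2) by 0.96, along with Sesn1 and Sesn3, and the GATOR2 subunits Sec13 and Wdr24 rose by 1.33 and 0.57. Sec13 also serves the COPII coat and the nuclear pore. Of 11 mTOR complex genes 1 rose and 3 fell. Rictor, the defining subunit of mTORC2, fell by 0.90, Prr5l by 0.86 and the mTORC1 inhibitor gene Akt1s1 by 0.51, and Prr5 rose by 0.41.

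Of 14 TSC, Rheb and AMPK genes 2 rose and 4 fell. The AMPK subunit genes Prkag2 and Prkaa2 fell by 1.74 and 1.09, and Prkag1 and the TSC subunit gene Tbc1d7 rose by 0.54 and 0.48. Flcn, 1 of 3 folliculin complex genes called, fell by 0.58. Of 17 substrates and outputs 2 rose and 6 fell. The translation initiation factor gene Eif4e rose by 0.68 and Pdcd4 by 0.65, whereas Ulk1, which starts autophagy, fell by 0.91, Lpin1 by 0.77 and Mitf by 0.51. Of 14 ATF4 targets 7 rose and 4 fell. Those that rose are biosynthetic enzymes or transfer RNA charging enzymes, with Asns at 1.82, Mthfd2 at 1.93 and Phgdh at 0.95, and those that fell include Trib3 at -1.66, Nupr1 at -1.96 and Vldlr at -2.06. Of 12 p53 targets 2 rose, Bax by 1.42 and Phlda3 by 0.28, and 4 fell, among them Trp53inp1 by 1.40, Perp by 0.93 and Mdm2 by 0.71. Between LT and ST stem cells 4 of the 95 genes were called, 3 higher in LT cells and 1 lower, against 2.74% and 2.13% of all genes, with Nupr1 (2.93), Mthfd2 (1.15) and Pdcd4 (1.15) higher in LT cells and Trp53inp1 (-0.82) lower.

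**Figure D4:**
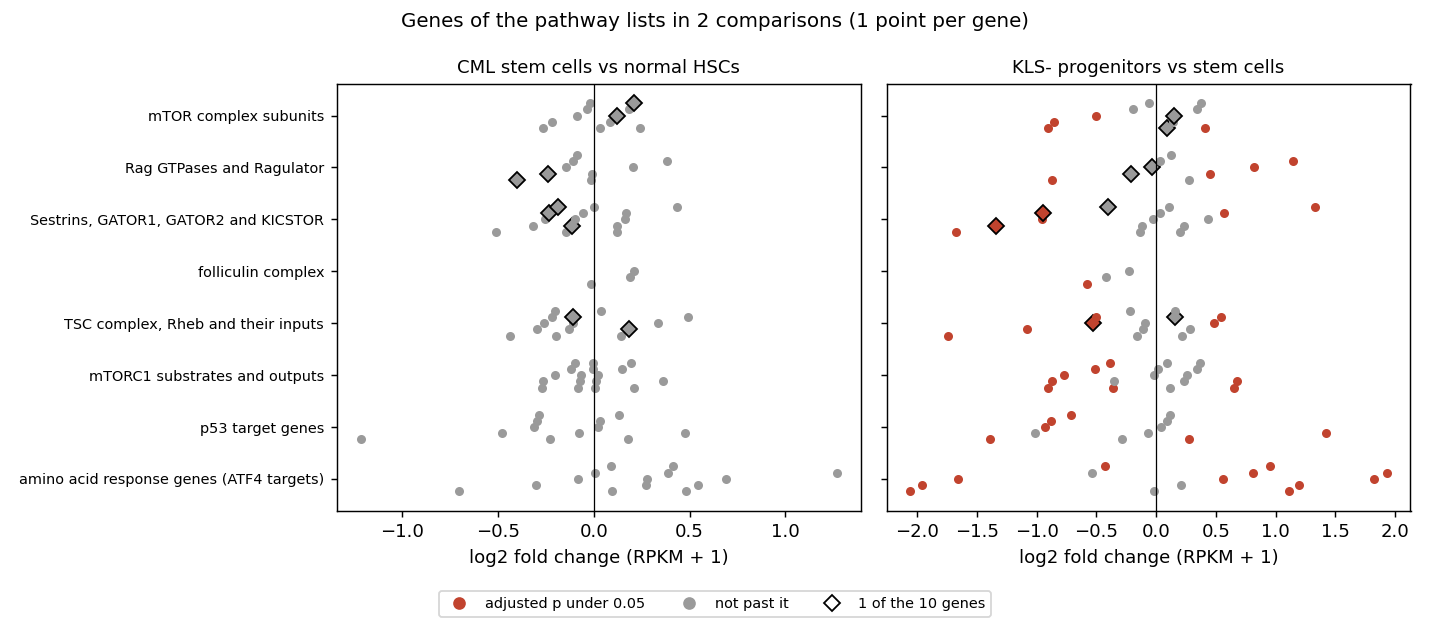
Log2 fold change on RPKM + 1 (x axis) of each gene in 8 pathway lists (rows), in CML stem cells against normal HSCs (left) and in KLS- progenitors against stem cells (right), with different x scales. Diamonds are genes among the 10 described and red marks an adjusted p under 0.05. No point is red on the left, and red points lie on both sides of 0 on the right.

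For the 3 genes with the widest range of log2(RPKM + 1), the genes with the most similar pattern over the 8 libraries were listed. Sesn1 was most like Laptm4a (Pearson r = 0.985), Lsp1 (0.982) and 2610110G12Rik (0.982), which were all lowest in CML-KLS- and next lowest in normal KLS- cells. Sesn3 was most like Lyrm5 (0.997), Plekhg1 (0.987) and Sh3bp5 (0.986), each highest in LT-HSC replicate 2 and lowest in CML-KLS- cells. Rragc was most like Ppp3r1 (0.975), Airn (0.960) and Cyp26b1 (0.956), and each of these peaked in LT-HSC replicate 2, so that the likeness rests largely on that library. The points share 8 libraries drawn from 6 populations, and the coefficients are descriptions only.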

How the data were processed

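Values were RPKM for 20207 genes in 8 libraries. Per the study's methods, the authors made oligo-dT-primed cDNA from low-input RNA, sequenced 100-base read pairs, mapped them to mm9 with a commercial service and deposited RPKM per gene. The annotation, the counting rule and strand handling are not given in the sources used here. RPKM are not counts, so no count test was used. Depth was estimated from the steps between low values, which lay on a common step in 90.1% of 2659 low genes, and scaled with GENCODE M1 exon lengths at the most frequent depth (678 of 2240 genes). Counting errors cover read sampling only.

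Libraries were grouped by their labels. limma 3.58.1 in R 4.3.3 (eBayes with an intensity trend) was applied to log2(RPKM + 1) for the 12561 genes whose RPKM summed to more than 1 over the 8 libraries. P-values were adjusted over all of them by Benjamini-Hochberg, and the threshold was 0.05. The CML comparison used 6 stem libraries without covariates, with LT and ST pooled as in the study's supplementary sequencing results. The study's text describes a screen of LT-CML stem cells against CML-KLS- cells and LT-HSCs. The LT comparison used 1 mean for each of 6 populations, and the LT to ST and KLS- comparisons an additive model with disease. KLS- cells were compared with the average of the LT and ST levels, each with equal weight. The steps were tested on simulated data. Python 3.11 with pandas 2.3.3 and scipy 1.17.1 did the rest.

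The 10 genes, the gene lists and the tests were chosen with earlier results of these data known. All 10 genes are named, and from each list up to 3 genes per direction with the smallest p among those called and up to 2 with the largest CML difference. Older symbols were matched through reference tables, and Tti2, Kics2, Samtor and Elane were not analysed here. Marker lists covered stem cells, granule cells, erythroid cells, megakaryocytes, lymphocytes and basophils or mast cells. Alternatives covered the pseudocount, the filter, quantile and upper-quartile scaling, the trend, the covariates and leaving out each library.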

Additional observations from a re-analysis of the deposited data

How the results depend on the processing

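No gene of the 9 tested was called between CML and normal stem cells, or between LT-CML and LT-HSC libraries, in any setting tried or with any library left out. The counts over all genes were less stable. Without the filter on low values, 193 genes were called between CML stem cells and normal HSCs and 283 between LT and ST cells. Between LT-CML and LT-HSC libraries limma then called 0 genes, with 1765 at an unadjusted p under 0.05, against 217 called with the filter. Cell type as a covariate raised the CML stem count to 543. Leaving out single libraries gave 115 to 217 genes for CML stem cells, 6 to 74 for LT-CML, 110 to 718 for LT against ST and 3178 to 6338 for KLS- cells. The lowest KLS- count came without the CML-KLS- library and the next, 3657, without the normal one. The 9 genes gave 0 to 1 calls for LT against ST, the call being Sesn1 without LT-CML replicate 1, and 2 to 3 for KLS- cells. Upper-quartile scaling gave 5 calls in KLS- cells, while the median of all genes moved to -0.21. It turned Mtor to -0.083, Rptor to -0.016 and Tsc2 to -0.025. Quantile normalization turned Rragc to 0.15, and gave Rptor 0.39 and Rraga -0.33 as calls.

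Signs that turned when a library was left out belonged to values that had not passed. In CML stem cells these were Mtor (-0.0023 to 0.34), Sesn1 (-0.40 to 0.088) and Tsc2 (-0.23 to 0.046). In LT-CML cells they were Mtor (-0.046 to 0.61), Rptor (-0.012 to 0.13), Rragc (-0.58 to 0.0067), Sesn1 (-0.53 to 0.15) and Tsc2 (-0.15 to 0.20). In LT against ST cells they were Sesn2 (-0.0039 to 0.12), Sesn3 (-0.57 to 0.061) and Tsc2 (-0.52 to 0.0024), and in KLS- cells Rragc (-0.13 to 0.060) and Tsc2 (-0.078 to 0.40). Where an arm kept 1 library, that library was assumed to vary like the others. The cause of these shifts was not tested. No paired analysis was possible because the normal libraries carry ages and no replicate numbers. Rragd and Sesn3 are limited by low read numbers, and Sesn3 did not enter the fits restricted to a mean of at least 1 RPKM.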
